A study of Homo sapiens with 6 samples.

Results

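Well expressed long intergenic non-coding RNAs (lincRNAs) were described in MDA-MB-231 cells, which derive from a human breast tumour of the basal-like, hormone receptor-negative kind. They were taken as every gene typed lincRNA in GENCODE 29 whose longest transcript had at least 200 bases and whose mean over the 6 libraries was at least 5 FPKM, a level scaled by transcript length and sequencing depth. GAS5 and genes with symbols starting SNHG or HOX were left out. Of 65198 gene rows, 7175 were lincRNAs, 3902 of those had a value above 0, and 141 reached 5 FPKM. Leaving out 4 genes with shorter transcripts and 6 SNHG genes left 131 lincRNAs. They were chosen by their mean FPKM over all 6 libraries, and the difference between the groups played no part in the rule. However, 17 of them reached 5 FPKM with the mean of 1 group below it, 9 in shHOTAIR and 8 in shCtrl. Of those found higher in shHOTAIR, FLJ22447, Z68871.1, LINC00630 and AL589743.4 entered only through their shHOTAIR mean. Of those found lower, AC078788.2, LINC00705, LINC02454 and GS1-124K5.4 entered only through their shCtrl mean. For these genes the choice and the difference are not independent.

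A pair of MDA-MB-231 derivatives was compared. Tet-shHOTAIR cells expressed, under doxycycline, a short hairpin RNA aimed at HOTAIR, a lincRNA of the HOXC locus. Tet-shCtrl cells expressed a scrambled hairpin. Both were given 1 µg/ml doxycycline for 96 h, and each contributed 3 independent biological repeats, so the comparison asked which transcripts differ when HOTAIR is targeted. Each group was 1 derivative of the line, so the hairpin's target and any other difference between the derivatives cannot be told apart, and a p-value measures only the spread between repeats.

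A lincRNA is made by RNA polymerase II like a messenger RNA, is usually capped, spliced and polyadenylated, and codes for no known protein. Some are scaffolds of nuclear bodies, some bind proteins in the cytoplasm, some are precursors of microRNAs, and some act on the gene beside which they are transcribed. For most no function is known.

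HOTAIR itself was not a usable check of the labels. It was listed at 0, 0 and 0.0113 FPKM in the shHOTAIR libraries, against 0, 0.0128 and 0.0132 FPKM in the shCtrl libraries, and the groups overlapped. An exact two-sided permutation test gave p = 0.4, where 3 libraries against 3 cannot go below 0.1. A difference was not detectable at levels this close to 0, and the reason for these levels was not tested. The cell line's markers VIM, CD44, EGFR, AXL, CAV1 and KRT18 were between 70.4 and 977 FPKM in every library, and the luminal and epithelial markers ESR1, PGR and CDH1 were at most 0.114 FPKM. All 14 markers of leukocytes, endothelium and fibroblasts were at most 3.82 FPKM, the highest being COL1A1. Fragment totals were not given. The value of 1 step in low genes, relative to shCtrl 1, was 0.664, 0.595 and 0.717 in the shHOTAIR libraries and 0.812 and 0.839 in shCtrl 2 and 3, and a smaller step means a deeper library.

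The sequences that define several of these RNAs are short. The mature microRNAs encoded inside 10 of the lincRNAs were read from RefSeq on GRCh38.p14. This count leaves out the lincRNAs of a chromosome named below, where the hosts are counted, so it is not a full list. The microRNAs of the hosts described here are shown 5′ to 3′ with the seed, bases 2 to 8, in capitals. The microRNAs themselves were not measured.
hsa-miR-503-5p in MIR503HG (chrX:134546371-134546393, minus strand): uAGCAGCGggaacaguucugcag
hsa-miR-137-3p in MIR137HG (chr1:98046091-98046113, minus strand): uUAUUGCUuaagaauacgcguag
hsa-miR-4435 in MIR4435-2HG (chr2:111321061-111321082, minus strand): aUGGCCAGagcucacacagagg
hsa-miR-4435 in CYTOR (chr2:87629764-87629785, plus strand): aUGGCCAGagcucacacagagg
hsa-miR-221-3p in MIR222HG (chrX:45746180-45746202, minus strand): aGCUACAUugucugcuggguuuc
hsa-miR-222-3p in MIR222HG (chrX:45747036-45747056, minus strand): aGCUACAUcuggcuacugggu
hsa-miR-22-3p in MIR22HG (chr17:1713914-1713935, minus strand): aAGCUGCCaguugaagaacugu
hsa-miR-29b-3p in LINC-PINT (chr7:130877467-130877489, minus strand): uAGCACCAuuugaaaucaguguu
MIR4435-2HG and CYTOR hold the same microRNA, and the pair in MIR222HG shares the seed GCUACAU.

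NORAD is a cytoplasmic RNA known for binding Pumilio proteins through many copies of an 8-base element, written TGTANATA. Its longest transcript (ENST00000565493.1, GENCODE 29) held 15 copies on the transcribed strand, or 2.81 per kb. Over the 131 lincRNAs the median was 0 per kb, 21 held at least 1 copy, and the next highest among those of at least 1000 bases had 0.803 per kb. Examples with the element in capitals show how alike the copies are, and neighbouring copies can be almost adjacent.
NORAD, element at base 1140: cactactgTGTATATAgttgacaa
NORAD, element at base 1241: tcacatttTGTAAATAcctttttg
NORAD, element at base 1442: cttatctgTGTATATAgtgtacat
NORAD, element at base 1451: gtatatagTGTACATAaaggacag
NORAD, element at base 2972: ccctactgTGTATATAgcggacaa

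Their mean level over the 6 libraries, the value they were chosen by, had a median of 10.5 FPKM, and 13 reached 50 FPKM. The longest transcript had a median of 1407 bases and ran from 260 bases to the 22743 bases of NEAT1. In that transcript 20 had a single exon and 52 had 2. Just inside the limit of 5 FPKM stood AL391121.1, with a mean of 4.56 FPKM in shHOTAIR and 5.44 FPKM in shCtrl, and AC009446.1, with 5.90 FPKM in shHOTAIR and 4.10 FPKM in shCtrl. Just outside it stood EIF3J-DT at 4.97 FPKM and AC005180.2 at 4.93 FPKM over all libraries. Without 1 library the mean of 10 lincRNAs dropped under 5 FPKM, and TEX41 alone dropped under 4.5 FPKM.

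Between the groups, 34 of the 131 lincRNAs changed, 14 higher and 20 lower in shHOTAIR. The test was limma's moderated test on log2(FPKM + 1), with Benjamini-Hochberg adjustment over the 15934 genes averaging 1 FPKM or more and a threshold of 0.05. That is 26.0% of the lincRNAs, against 23.8% of all genes tested, of which 11.5% were higher and 12.4% lower. At 5 FPKM or more, 27.7% of all genes and 30.4% of the 9466 protein-coding genes passed, so the share of lincRNAs that changed was near the background. Among the 114 lincRNAs with both group means at or above 5 FPKM, 22.8% changed, 10 higher and 16 lower.

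The sizes of the changes are given beside those of other genes as a description, with no test of the difference. The median size of the log2 change, without its sign, was 0.32 for the lincRNAs, 0.23 for all genes tested with at least 5 FPKM, and 0.21 for both protein-coding and antisense genes at that level. The median standard error was 0.117 for the 92 lincRNAs of 5 to 15 FPKM and 0.103 for the 2678 protein-coding genes in that range. Over all 131 lincRNAs it was 0.116, close to the 0.117 of the 495 antisense genes of at least 5 FPKM, and lincRNAs of 1 to 5 FPKM had 0.174. The median signed log2 change was -0.10 for the lincRNAs and -0.03 for all genes tested. In 67 lincRNAs, or 51.1%, the highest library of one group lay below the lowest of the other, 27 higher and 40 lower in shHOTAIR. Of all genes tested, 43% did so. These include genes of 1 to 5 FPKM, and the share at 5 FPKM or more was not computed, so no excess is read from this. Transcript length went with the calls: 31.2% of the 77 lincRNAs of at least 1000 bases changed and 18.5% of the 54 shorter ones, whose median standard error was 0.137 against 0.107 for the longer ones. The part of length in these calls was not tested. Across libraries, the correlation of log2 levels over the lincRNAs was between 0.913 and 0.981 within a group. Between the groups it was between 0.827 and 0.903. The low ends were pairs with shCtrl 3, at 0.913 and 0.939 within its group and 0.827 to 0.841 with shHOTAIR libraries. Without that library, shCtrl 1 and 2 gave 0.963, and pairs between the groups gave 0.882 or more. The lincRNA TEX41 had 104 FPKM in shCtrl 3, against 2.07 and 6.31 FPKM in shCtrl 1 and 2. Its part in these low ends was not tested. Over protein-coding genes the correlation was between 0.990 and 0.994 within a group and between 0.966 and 0.973 between the groups. There shCtrl 3 was at 0.992 and 0.994 with shCtrl 1 and 2.

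**Figure D1:**
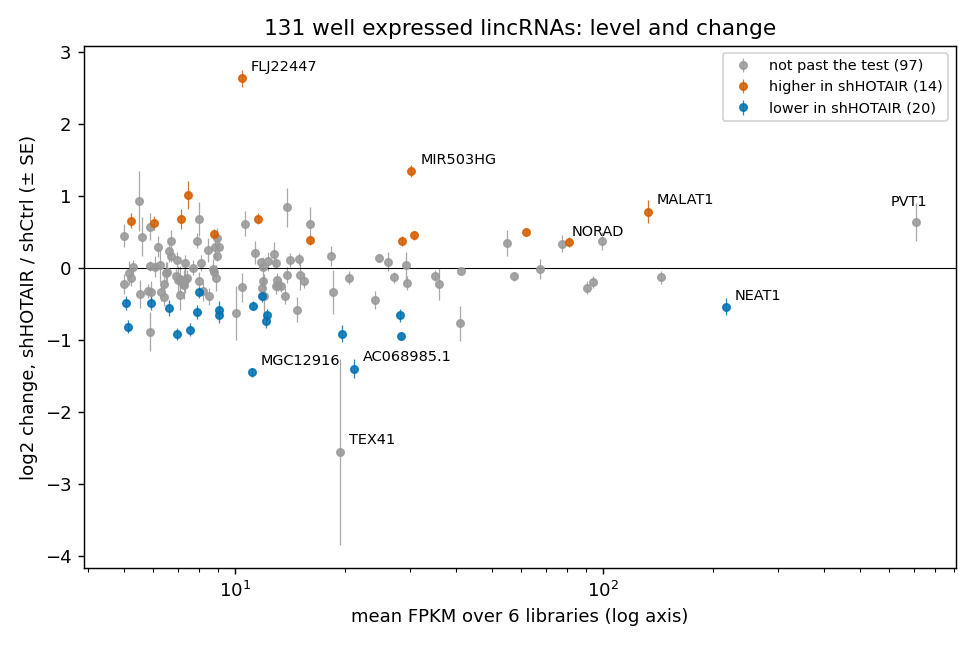
Each point is 1 of the 131 lincRNAs, with its mean FPKM over 6 libraries on a log axis and its log2 change, shHOTAIR over shCtrl, with the standard error from limma as a bar. The 14 higher and 20 lower lincRNAs lie between 5.08 FPKM (LINC02454) and 216 FPKM (NEAT1). PVT1, which did not pass the test, is the highest at 710 FPKM, and TEX41 has the longest error bar.

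The largest rise was that of FLJ22447, a lincRNA with PRKCH and HIF1A as its nearest tested coding genes on chromosome 14 (ENSG00000232774, chr14:61570540-61658696, plus strand). It had 17.8, 19.7 and 18.8 FPKM in the shHOTAIR libraries, against 2.72, 1.77 and 2.13 FPKM in the shCtrl libraries. The groups were far apart and each was tight. Its shCtrl mean was 2.21 FPKM, so it reached the limit of 5 FPKM only through shHOTAIR. The log2 change was 2.63 ± 0.122 (SE), with a limma adjusted p of 0.000406. Both coding neighbours were higher in shHOTAIR as well. PRKCH, a protein kinase C, changed by 1.23 on the log2 scale (limma adjusted p = 0.00784), and HIF1A, the oxygen-regulated subunit of the hypoxia-inducible factor, changed by 0.94 (limma adjusted p = 0.000699). LINC01303, a lincRNA below the limit of 5 FPKM that shares 4.30% of the exon bases of FLJ22447 on the other strand, changed by 1.38 (limma adjusted p = 0.00195). Of the 31-base stretches of the longest FLJ22447 transcript, 45.8% occur in another tested gene.

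MIR503HG, the host of miR-503, rose next (ENSG00000223749, chrX:134543337-134546632, minus strand). It had 43.8, 47.2 and 40.4 FPKM in the shHOTAIR libraries, against 15.4, 17.5 and 17.1 FPKM in the shCtrl libraries. Every shHOTAIR value was above every shCtrl value, and the log2 change was 1.34 ± 0.0807 (SE, limma adjusted p = 0.000707). The coding gene on its lower side, HPRT1, a purine salvage enzyme, changed by 0.63 (limma adjusted p = 0.00248), and PLAC1 on the other side by 0.51 without passing the test (limma adjusted p = 0.132). None of the 31-base stretches of MIR503HG occurs in another tested gene.

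Further rises were smaller. Z68871.1 and LINC00630, which overlap on the same strand of chromosome X, averaged 10.4 ± 2.60 FPKM and 6.62 ± 0.547 FPKM in shHOTAIR, against 4.58 ± 0.709 FPKM and 3.84 ± 0.499 FPKM in shCtrl (SD, n = 3 each). Their log2 changes of 1.01 and 0.66 stood beside rises of 0.97 for BHLHB9 and 0.77 for TCEAL8, the coding genes around them. The call of Z68871.1 was lost without shHOTAIR 1 or 2 or shCtrl 1 or 3 (limma adjusted p up to 0.0731). LINC00665 on chromosome 19 had 14.5, 14.2 and 14.5 FPKM in shHOTAIR, against 7.75, 8.84 and 9.36 FPKM in shCtrl, a log2 change of 0.68 (limma adjusted p = 0.00329). It rose among zinc finger genes that did not rise: ZFP82 was lower in shHOTAIR by -0.36 (limma adjusted p = 0.0193), and ZNF565 had -0.30 without passing the test. LINC02085 changed by 0.68, AL589743.4 by 0.63 and LINC00601 by 0.48. The call of LINC02085 was lost without shHOTAIR 2 or 3 or any 1 shCtrl library (limma adjusted p up to 0.0743).

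The largest fall past the test was that of MGC12916, a single-exon gene inside the coding gene HS3ST3B1 on the same strand of chromosome 17 (ENSG00000266709, chr17:14303854-14305505). It had 5.36, 5.51 and 5.72 FPKM in the shHOTAIR libraries, against 17.0, 15.8 and 17.5 FPKM in the shCtrl libraries. The groups did not overlap, and the log2 change was -1.44 ± 0.0620 (SE, limma adjusted p = 0.000381). HS3ST3B1, a heparan sulfate sulfotransferase, fell with it by 0.90 on the log2 scale (limma adjusted p = 0.00267). They share no exon bases and no 31-base stretch, but unspliced HS3ST3B1 RNA would run through MGC12916, and its part was not tested.

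AC068985.1 and AC078788.2 lie on the same strand of chromosome 3, between the coding genes RAP2B and ARHGEF26. AC068985.1 had 10.1, 13.7 and 9.83 FPKM in shHOTAIR, against 32.4, 31.7 and 28.5 FPKM in shCtrl, a log2 change of -1.40 ± 0.134 (SE, limma adjusted p = 0.00218). AC078788.2 had 4.94, 4.66 and 4.07 FPKM in shHOTAIR, against 9.39, 9.21 and 9.69 FPKM in shCtrl, a log2 change of -0.91 (limma adjusted p = 0.00173). Both fell with no overlap between the groups. RAP2B at 0.02 and ARHGEF26 at -0.16 on the log2 scale did not pass the test.

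MANCR, known as a mitosis-associated RNA raised in aggressive breast cancer, also fell (ENSG00000231298, chr10:4650185-4678154, minus strand). It had 18.1, 18.9 and 20.2 FPKM in shHOTAIR, against 38.2, 37.4 and 37.1 FPKM in shCtrl, a log2 change of -0.94 ± 0.0565 (SE, limma adjusted p = 0.000705). LINC00705, which overlaps it on the opposite strand, had 3.22, 3.25 and 3.90 FPKM in shHOTAIR, against 6.96, 6.86 and 6.60 FPKM in shCtrl, a log2 change of -0.81 (limma adjusted p = 0.00288). The overlap covers 11.4% of the exon bases of MANCR. Whether the deposited values were counted by strand is not stated, so reads of overlapping genes on opposite strands may have been counted for either. Of the tested coding genes that flank the pair, the transcription factor KLF6 fell by 1.14 on the log2 scale (limma adjusted p = 0.000406). The nearer one, the steroid reductase AKR1C3, lies 357200 bases from MANCR and rose by 0.95 (limma adjusted p = 0.00492).

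APTR, known for repressing the cell cycle inhibitor CDKN1A, starts 178 bases from the coding gene RSBN1L and runs the other way (ENSG00000214293, chr7:77657660-77696265, minus strand). It had 12.3, 13.3 and 14.2 FPKM in shHOTAIR, against 30.2, 22.2 and 25.4 FPKM in shCtrl, a log2 change of -0.91 ± 0.121 (SE, limma adjusted p = 0.00547). RSBN1L had 16.2, 13.8 and 11.0 FPKM in shHOTAIR, against 22.5, 24.2 and 26.6 FPKM in shCtrl, a log2 change of -0.81 (limma adjusted p = 0.0139). Both genes of this shared start region fell, and neither group overlapped the other. The stretch from 250 bases before to 50 bases after the RefSeq start of APTR is shown because it spans the gap between the genes, with the motif CCAAT, or its reverse complement ATTGG, in capitals.
APTR promoter (RefSeq, GRCh38.p14, chr7:77696216-77696515, minus strand): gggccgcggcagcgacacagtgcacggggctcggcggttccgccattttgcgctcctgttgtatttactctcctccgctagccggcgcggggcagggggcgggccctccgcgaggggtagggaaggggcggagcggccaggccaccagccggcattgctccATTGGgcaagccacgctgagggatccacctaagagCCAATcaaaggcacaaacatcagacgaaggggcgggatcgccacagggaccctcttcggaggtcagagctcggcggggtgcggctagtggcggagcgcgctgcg
It holds 30 CG pairs and 68.7% G or C, against medians of 14 CG pairs and 58.7% over the 35116 promoters of that table. CCAAT on either strand is in 34.6% of all those promoters and in 20 of the 42 lincRNAs with a promoter there, and TATAAA on either strand, absent from the APTR stretch, is in 11.5% of all and in 8 of the 42. A match is a description and not a shown binding site.

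Other falls included AC005180.1 at -0.85, LINC01116 at -0.74, MIR137HG and LINC00973 at -0.66 each. LINC01116 lies near the HOXD cluster on chromosome 2. It averaged 8.90 ± 1.01 FPKM in shHOTAIR and 15.5 ± 0.581 FPKM in shCtrl (SD, n = 3 each, limma adjusted p = 0.00379). LINC00973 had 24.6, 19.6 and 21.0 FPKM in shHOTAIR, against 34.4, 34.4 and 35.0 FPKM in shCtrl (limma adjusted p = 0.00573). It fell between coding genes that were higher in shHOTAIR: DCBLD2, a receptor-like membrane protein, by 0.51 and the collagen gene COL8A1 by 1.61 (limma adjusted p = 0.00192 and 0.000700).

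**Figure D2:**
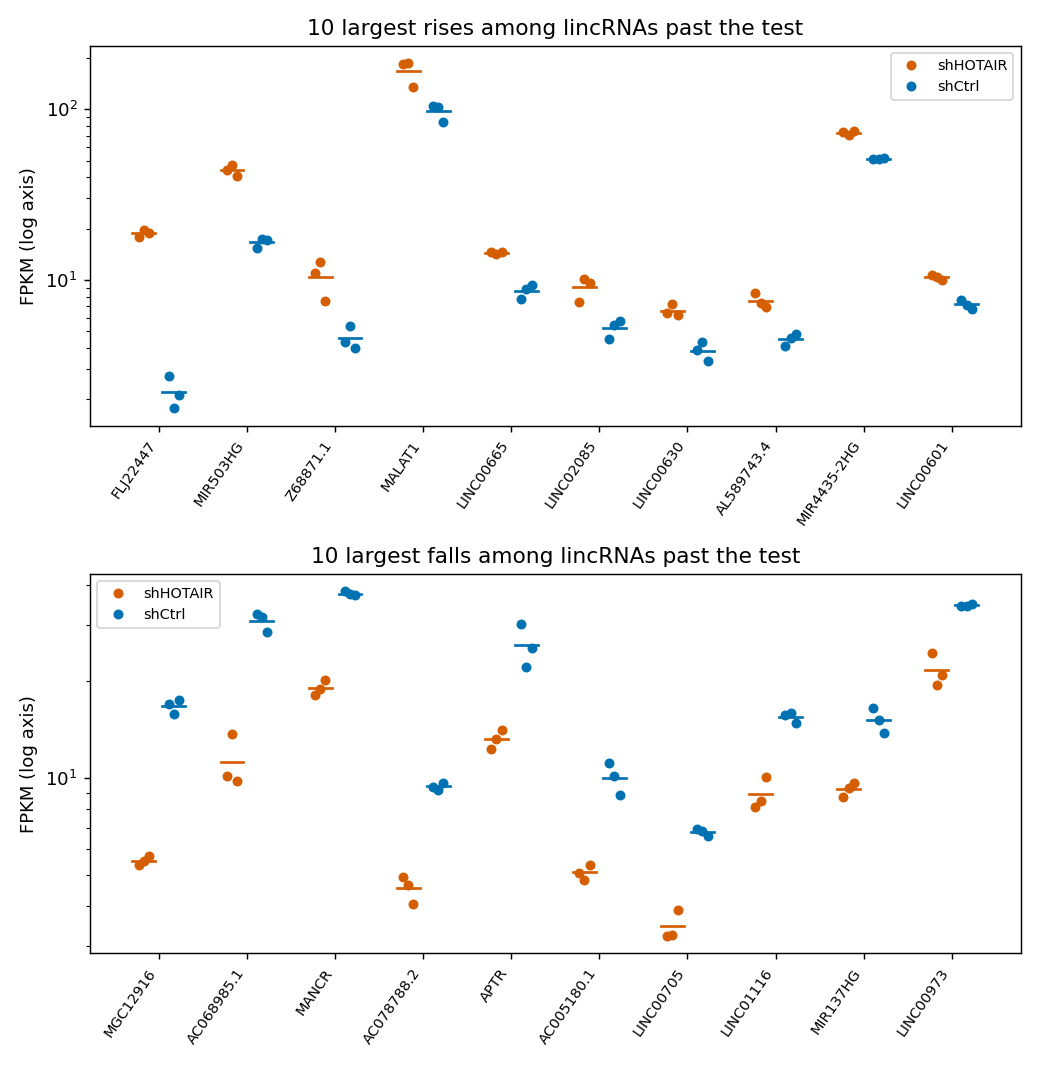
FPKM on a log axis of the 10 largest rises and the 10 largest falls among lincRNAs that passed the test, with shHOTAIR left of shCtrl in each pair. Points are the 3 libraries of a group and lines their means. In all 20 pairs the groups do not overlap, and FLJ22447 is the widest apart. The pairs were chosen for passing the test in these same libraries, so their separation is no added support.

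The abundant nuclear lincRNAs MALAT1 and NEAT1 moved in opposite directions. They lie 52147 bases apart on the same strand of chromosome 11. MALAT1 gathers in nuclear speckles, which store splicing factors (ENSG00000251562, chr11:65497688-65506516). NEAT1 is the scaffold of paraspeckles, nuclear bodies that hold back RNA and proteins (ENSG00000245532, chr11:65422774-65445540). MALAT1 had 184, 186 and 135 FPKM in the shHOTAIR libraries, against 105, 102 and 83.8 FPKM in the shCtrl libraries. NEAT1 had 188, 169 and 171 FPKM in the shHOTAIR libraries, against 301, 246 and 225 FPKM in the shCtrl libraries. Neither pair of groups overlapped. The log2 change was 0.78 ± 0.156 for MALAT1 and -0.54 ± 0.118 for NEAT1 (SE, limma adjusted p = 0.0192 and 0.0260).

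Both calls were close to the threshold. That of MALAT1 was lost without shHOTAIR 1 or 2 or any 1 shCtrl library (limma adjusted p between 0.0542 and 0.0725), and that of NEAT1 without any 1 shHOTAIR library or without shCtrl 2 (between 0.0535 and 0.0914), while each kept its direction. The ratio of MALAT1 to NEAT1 within a library, looked at after their values were seen, does not depend on the scaling of that library. It was 0.978, 1.10 and 0.794 in shHOTAIR, against 0.348, 0.417 and 0.372 in shCtrl. An exact two-sided permutation test gave p = 0.1, the smallest that 3 against 3 allows. That outcome was fixed in advance, since MALAT1 was higher and NEAT1 lower in every shHOTAIR library. The ratio is therefore no further evidence for either change. Libraries were made from poly(A) RNA. The 3′ ends of mature MALAT1 and of the long NEAT1 isoform are made by RNase P and carry no poly(A) tail, and gene-level values do not tell the NEAT1 isoforms apart.

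Genes for proteins that work with these RNAs were counted from lists of known members, to be read beside the 11.5% of all genes tested that were higher and the 12.4% that were lower. For protein-coding genes of at least 5 FPKM the shares were 14.3% higher and 16.1% lower. Of 15 paraspeckle proteins 4 rose and none fell, with SFPQ higher by 0.51, TARDBP by 0.28 and EWSR1 by 0.22 on the log2 scale. Of 10 speckle and splicing factors 3 rose and none fell: SON, a core speckle protein, by 0.44, SRSF7 by 0.32 and SRSF6 by 0.25. Of 11 subunits of RNase P and the tRNA-processing enzyme ELAC2, none rose and 2 fell: RPP38 by 0.97 and RPP30 by 0.62, both on chromosome 10, where 56.9% of the genes tested were lower in shHOTAIR. The median log2 change was 0.08 for the paraspeckle proteins, 0.14 for the speckle factors and -0.16 for the RNase P list, beside -0.03 for all genes tested. With lists this small, nothing particular to them is read from these counts.

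The lists for RNA decay and modification are given beside the same shares, 23.8% of all genes and 30.4% of those coding genes in either direction. Of 19 genes of the nuclear exosome and its adaptors, which degrade many unstable nuclear RNAs, 2 rose and 3 fell. The catalytic subunit gene DIS3 rose by 0.60 and EXOSC9 by 0.31, and EXOSC1 fell by 0.71, EXOSC4 by 0.40 and EXOSC5 by 0.36. Of 10 genes of nonsense-mediated decay, UPF3A rose by 0.97, UPF3B by 1.12, and UPF2 fell by 0.71. Of 16 writers, erasers and readers of the RNA mark m6A, ZC3H13 rose by 0.49 and YTHDF2 by 0.34, and none fell. The medians of these lists were -0.04, 0.04 and -0.01. Nothing particular to these lists is read from these counts either. The part of the chromosomes on which these genes lie was not tested.

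Several of the best known lincRNAs did not pass the test. PVT1, which lies beside the oncogene MYC and is often amplified with it, was the highest of the 131. It had 1110, 914 and 594 FPKM in shHOTAIR, against 530, 451 and 664 FPKM in shCtrl. The groups overlapped, since shHOTAIR 3 was below shCtrl 3, and the log2 change was 0.64 ± 0.266 (SE, limma adjusted p = 0.144). MYC, the nearest coding gene, had 201, 184 and 183 FPKM in shHOTAIR, against 370, 328 and 333 FPKM in shCtrl, and fell by 0.86 on the log2 scale (limma adjusted p = 0.00152). PVT1 exons overlap small RNA genes, among them RNU4-25P, whose reads may be counted in it.

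NORAD had 101, 82.5 and 77.5 FPKM in shHOTAIR, against 64.2, 73.1 and 67.7 FPKM in shCtrl. The groups did not overlap, but the log2 change of 0.34 did not pass the test (limma adjusted p = 0.0863). PUM2, the gene of a Pumilio protein, did not pass either, at -0.07. LINC-PINT, a p53-induced RNA that hosts miR-29b, had 22.7, 18.0 and 19.9 FPKM in shHOTAIR, against 32.2, 24.9 and 26.9 FPKM in shCtrl, with no overlap, a log2 change of -0.45 and a limma adjusted p of 0.0531. It passed with a pseudocount of 0.1 or 0.01, a minimum mean of 5 FPKM, robust eBayes or the replicate block (limma adjusted p between 0.0343 and 0.0478), and not with the other alternatives (up to 0.150). JPX, known for its part in X inactivation, averaged 19.4 ± 1.06 FPKM in shHOTAIR and 21.5 ± 2.37 FPKM in shCtrl (SD, n = 3 each), with overlapping groups.

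TEX41 had the most negative fitted change and the largest error. It had 1.21, 1.47 and 1.17 FPKM in shHOTAIR, against 2.07, 6.31 and 104 FPKM in shCtrl. A single library, shCtrl 3, held nearly all of its signal, and the log2 change of -2.55 ± 1.29 (SE) did not pass the test (limma adjusted p = 0.213). Without shCtrl 3 its mean was 2.45 FPKM, below the limit used here.

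PVT1 and the other lincRNAs of chromosome 8 were left out of the count of microRNA hosts, whether or not they hold a microRNA. Of the 10 hosts counted, 3 rose, 1 fell and 6 did not pass the test. Beside this, 26% of the 131 lincRNAs and 27.7% of all genes of at least 5 FPKM passed. With a list this small, nothing particular to the hosts is read from the count. MIR503HG rose, as given above, as did MIR4435-2HG, described next, and MUC20-OT1, the host of miR-570, by 0.38 on the log2 scale (limma adjusted p = 0.0141). The call of MUC20-OT1 was lost without shHOTAIR 2 or 3 (limma adjusted p up to 0.0533). MIR137HG fell. MIR137HG had 8.75, 9.33 and 9.68 FPKM in shHOTAIR, against 16.5, 15.2 and 13.8 FPKM in shCtrl, a log2 change of -0.66 ± 0.0808 (SE, limma adjusted p = 0.00425). It shares 6.89% of its exon bases with DPYD on the same strand, and DPYD, which breaks down pyrimidines, rose by 0.31 (limma adjusted p = 0.00719). MIR222HG averaged 14.7 ± 1.67 FPKM in shHOTAIR and 13.5 ± 1.06 FPKM in shCtrl, and MIR22HG averaged 6.98 ± 0.692 FPKM in shHOTAIR and 7.84 ± 1.03 FPKM in shCtrl (SD, n = 3 each). Neither passed the test, nor did MIR4458HG at a log2 change of 0.13, LINC00472, which hosts members of the miR-30 family, at -0.33, LINC-PINT or CYTOR.

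MIR4435-2HG and its near copy CYTOR, both known as growth-promoting RNAs in tumours, share more than their microRNA. Of the 31-base stretches of the longest MIR4435-2HG transcript, 53.9% are in CYTOR, and the longest identical run is 367 bases. MIR4435-2HG had 73.6, 70.9 and 74.1 FPKM in shHOTAIR, against 50.7, 50.9 and 51.5 FPKM in shCtrl, a log2 change of 0.50 ± 0.0430 (SE, limma adjusted p = 0.00158). CYTOR had 57.7, 53.3 and 73.7 FPKM in shHOTAIR, against 51.0, 38.7 and 55.5 FPKM in shCtrl, a log2 change of 0.34 ± 0.179 with overlapping groups (SE, limma adjusted p = 0.226). How reads of the shared part were divided between them is not known, so the split of these values is uncertain. Other listed growth-linked RNAs that did not pass were EPB41L4A-AS1 at -0.33, LINC00467 at 0.44 and LINC00707 at 0.17. LINC00467 passed only without shHOTAIR 2, at 0.73 (limma adjusted p = 0.0437).

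**Figure D3:**
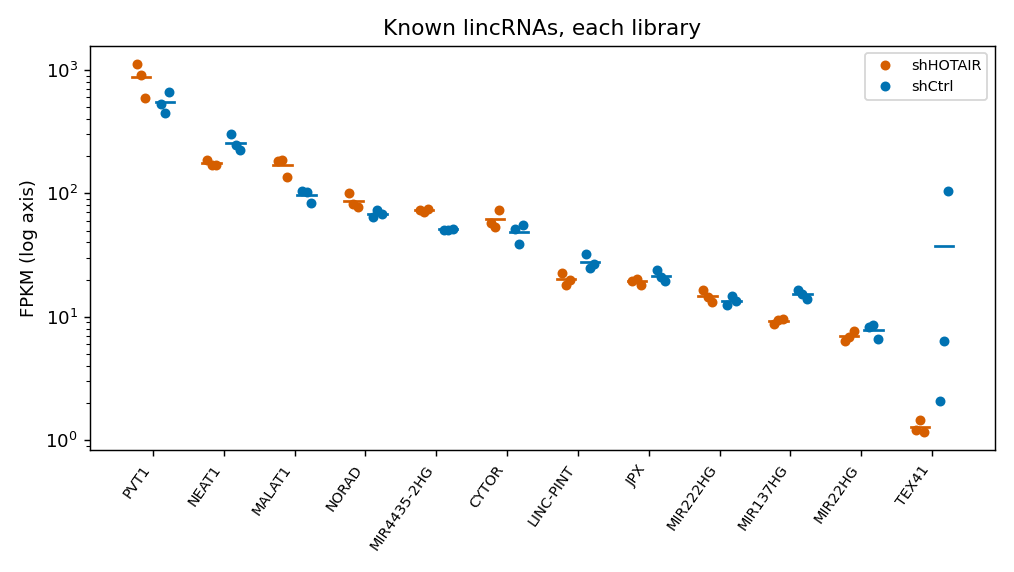
FPKM on a log axis of 12 lincRNAs known by name, shHOTAIR left of shCtrl, with points for the 3 libraries of a group and lines for their means. MALAT1 is higher and NEAT1 lower in shHOTAIR, the groups of PVT1 overlap, and the shCtrl libraries of TEX41 run from 2.07 to 104 FPKM.

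Some of the highest values may not belong to the lincRNA they are listed under. In 18 of the 131, over 80% of the 31-base stretches of the longest transcript occur in another tested gene, and 14 of these 18 overlap exons on the opposite strand over most of their length. They include 4 of the 8 highest lincRNAs: AC027290.1 opposite VPS37B, AC004542.1 and AC004542.2 opposite TUG1, and AL355075.3 opposite PNP. Without a stated strand setting, reads of such a pair cannot be told apart. A stretch of AC004542.2 and its reverse complement in TUG1 (chromosome 22, GENCODE 29 transcripts) shows the case, part of an identical antisense run of 419 bases in its 546-base transcript.
AC004542.2, bases 128 to 187: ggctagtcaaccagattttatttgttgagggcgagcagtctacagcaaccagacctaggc
TUG1, bases 3043 to 3102: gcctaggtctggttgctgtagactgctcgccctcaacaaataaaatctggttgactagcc
AC004542.2 had 90.6, 87.3 and 95.6 FPKM in shHOTAIR, against 69.4, 76.3 and 66.6 FPKM in shCtrl, a log2 change of 0.36 ± 0.0697 (SE, limma adjusted p = 0.0169). That call was lost without shHOTAIR 3, shCtrl 1 or shCtrl 3 (limma adjusted p = 0.0531 without shHOTAIR 3). TUG1 averaged 84.7 ± 6.40 FPKM in shHOTAIR and 74.1 ± 8.12 FPKM in shCtrl (SD, n = 3 each), a log2 change of 0.20 (limma adjusted p = 0.226).

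Of these 18, 14 had a log2 change of the same sign as the gene they share sequence with, and 3 passed the test, AC004542.2, AC106712.1 and LINC02085. AC106712.1 and LINC02085 overlap on the same strand of chromosome 3 and share 87.3% of the exon bases of AC106712.1. Each is the other's partner here, and AC004542.1 and AC004542.2 share the partner TUG1. The pairs are therefore not independent, and no expected share of equal signs was computed. Of the 8 highest lincRNAs, LINC02407 at -0.20, AC027290.1 at -0.13, AC004542.1 at 0.37 and AL355075.3 at -0.27 did not pass the test. Among the 88 lincRNAs with at most 20% of their stretches elsewhere, 29.5% changed, 8 higher and 18 lower, a split chosen after the data were seen. The other 43 held 6 of the rises and 2 of the falls.

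**Figure D4:**
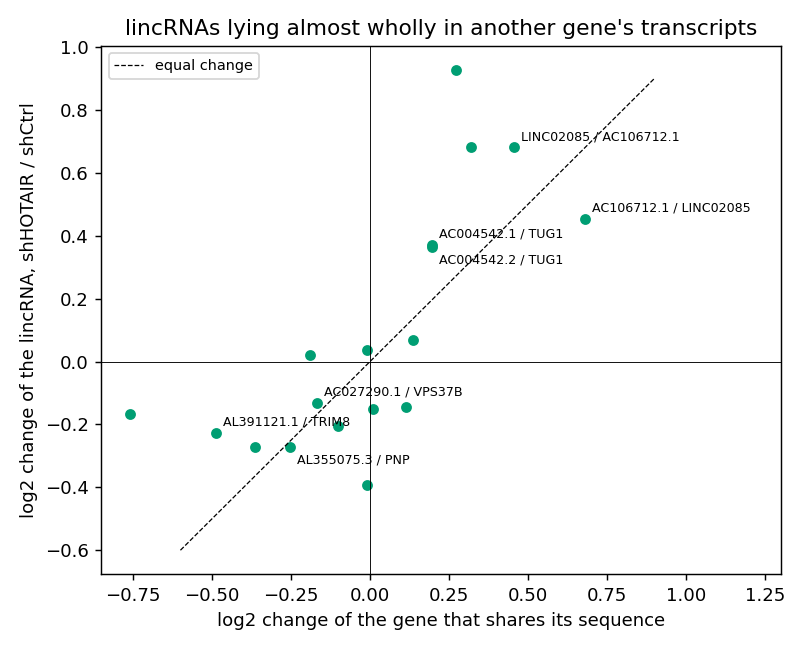
Log2 change, shHOTAIR over shCtrl, of the 18 lincRNAs with over 80% of their 31-base stretches in another tested gene, against the change of that gene. The dashed line marks equal change, and 14 of the 18 points have the same sign on both axes.

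The changes of the lincRNAs were set beside those of their surroundings. Of the 131, 30 overlap the span of a coding gene and 10 start within 1 kb of a coding gene that runs the other way. The 50 nearest tested protein-coding genes, a window with a median of 13.9 Mb, had medians between -0.75 and 0.72 on the log2 scale. Of the 15 lincRNAs in surroundings below -0.2, 4 fell and 1 rose. Of the 11 in surroundings above 0.2, 6 rose and 1 fell, and of the 105 between, 7 rose and 15 fell. Over the 131 lincRNAs, Pearson's r was 0.31 with that median and 0.28 with the nearest tested coding gene. Both are a description of genes that share libraries and neighbourhoods. Of the 34 that changed, the nearest tested coding gene changed the same way in 9, the opposite way in 6 and did not pass in 19.

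Single chromosomes are given as examples, on most of which many genes moved 1 way. On chromosome 10, where 56.9% of genes tested were lower and 2.72% higher in shHOTAIR, 3 of 10 lincRNAs fell, MANCR, LINC00705 and SFTA1P, and 1, LINC00601, rose. LINC00601 had 10.7, 10.5 and 10.0 FPKM in shHOTAIR, against 7.68, 7.14 and 6.75 FPKM in shCtrl, while its surroundings had a median of -0.47. On chromosome X, where 37.8% of genes were higher in shHOTAIR, 3 of 6 lincRNAs rose and none fell. On chromosome 13, where 40.3% of genes were higher, the single lincRNA, AL161431.1, rose. Other chromosomes differed. On chromosome 1, where 20.2% of genes were higher and 5.81% lower, 0 of 9 lincRNAs rose and 2 fell. On chromosomes 20 and 21, where 21.4% and 33.6% of genes were higher, no lincRNA passed the test. On chromosome 3, where 14.3% of genes were higher and 8.18% lower in shHOTAIR, 3 of 9 lincRNAs rose and 4 fell.

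With each gene set relative to its surroundings, 24 of the 34 kept their call and direction. The calls lost were those of NEAT1, LINC00705, SFTA1P, KC6, RAB30-AS1, Z68871.1, LINC00630, LINC02085 and AC106712.1. AL161431.1 turned from a log2 change of 0.39 to -0.39 (limma adjusted p = 0.0170 and 0.0414), beside surroundings at 0.72. LINC00707, on chromosome 10 beside surroundings at -0.68, passed only on this scale, at 0.84 (limma adjusted p = 0.00241). So did AC107958.2 at -0.57 and AL669831.5 at -1.15. FLJ22447 at 2.52, MIR503HG at 0.68, MGC12916 at -1.38 and AC068985.1 at -1.29 stayed past the threshold. MANCR stayed past it at -0.27 (limma adjusted p = 0.0464), against -0.94 without the correction. The part of the surroundings in these changes was not tested.

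**Figure D5:**
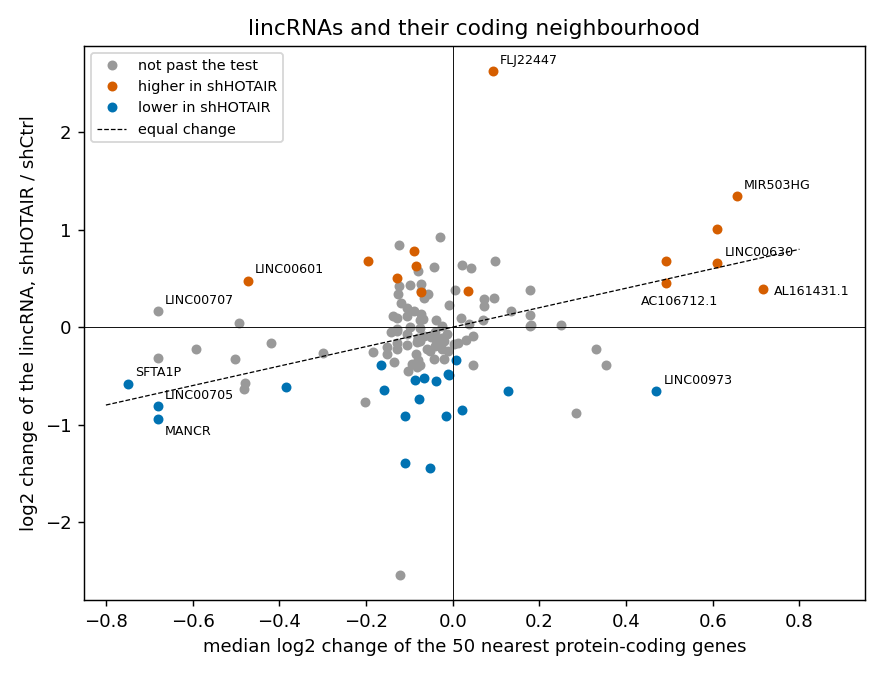
Log2 change, shHOTAIR over shCtrl, of each of the 131 lincRNAs against the median change of its 50 nearest tested protein-coding genes. The dashed line marks equal change, and LINC00601 and LINC00973 lie on the far side of 0 from their surroundings.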

How the data were processed

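Poly(A) RNA of 6 libraries, 3 of Tet-shHOTAIR and 3 of Tet-shCtrl MDA-MB-231 cells, was sequenced after selection with a NEBNext module and a PrepX library kit, per the labels' protocols. TopHat2 2.0.13, DESeq and GRCh38 are named in the submitters' processing notes, without their roles. The authors deposited FPKM values. What program, annotation, filters or strand setting gave them is not stated. Whole reads could not be recovered, so absolute depth is unknown.

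Of 65198 rows, 56807 matched GENCODE 29, which gave type, position and transcripts, and 8391 did not. The 15934 genes averaging 1 FPKM or more were tested on log2(FPKM + 1) with limma 3.58.1 (R 4.3.3), using an intensity trend and no replicate block, and Benjamini-Hochberg adjustment over all of them. The script was tested on simulated data. Fold changes on this scale understate low genes. Figures and sequence counts used Python 3.11.15. No 2 libraries of a group held equal nonzero values for any tested gene.

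The lincRNAs and lists were chosen with earlier results of these data known. Named were the 8 highest lincRNAs, the 10 largest rises and falls past the threshold, genes at the limit of 5 FPKM, lincRNAs and partner genes from the lists, and neighbouring coding genes. TEX41, MUC20-OT1, LINC00472, SFTA1P, KC6, RAB30-AS1, AL161431.1, AC106712.1, AC107958.2, AL669831.5, LINC01303 and ZNF565 were named after their values were seen. Of the listed lincRNAs, TUG1, DANCR, LINC00511 and LUCAT1 have another gene type, UCA1, LINC01133 and FTX lie under 5 FPKM, and LINC00673 was not matched. Some genes of the partner lists are not reported here. In bulk RNA, a lower level per cell and fewer cells with the RNA cannot be told apart. Alternatives were pseudocounts of 0.1 and 0.01, other filters, scalings and limma settings, the replicate block, regional centring, other member limits and each library left out.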

Additional observations from a re-analysis of the deposited data

How the results depend on the processing

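Under the alternatives the 39 named lincRNAs gave 624 values, of which 586 kept direction and side of the threshold, 29 lost the call, 7 gained one (5 of them for LINC-PINT, and 1 each for LINC00707 and LINC00467) and 2 changed sign. The 2 that changed sign, both under regional centring, were AL391121.1 at 0.36 (adjusted p = 0.115) and MIR4458HG at -0.0949 (adjusted p = 0.497). Of the 34 calls, 21 held without any 1 library, and 13 did not: those of MALAT1, NEAT1, Z68871.1, LINC02085, AC004542.2, MUC20-OT1, AL161431.1, SFTA1P, AC007405.3, LINC02454, GS1-124K5.4, RAB30-AS1 and LINC00960, with limma adjusted p of at most 0.102. Leaving out 1 library gave 10 to 14 lincRNAs higher and 15 to 17 lower in shHOTAIR, and 1243 to 1554 genes higher and 1224 to 1605 lower, with the lincRNA median between -0.134 and -0.0552. That median was -0.0793 with the median of ratios, -0.0825 with quantile normalization, -0.0371 with regional centring, -0.0494 without lincRNAs overlapping a coding span, and -0.131 for those with at most 20% of 31-base stretches shared, of which 8 rose. A limit of 3 FPKM gave 22 higher and 35 lower of 211, and 10 FPKM gave 9 and 10 of 67. Regional centring called 1268 genes higher and 1125 lower, against 1829 higher and 1968 lower without it. A replicate block called 825 genes higher and 915 lower, and 23 of the 34 lincRNA calls held. Same-numbered libraries did not deviate together (r = -0.0221, 0.00696 and -0.0307), so the numbers were not taken to pair samples. NEAT1 also lost its call with no filter (adjusted p = 0.0556). The cause of these shifts was not tested. HOTAIR, fitted with all genes above 0, did not pass with other pseudocounts, the replicate block or any 1 library left out (adjusted p between 0.556 and 0.889), the alternatives run for it. Depth limits low genes, and the reason for the low HOTAIR values was not tested.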
